A study of Mus musculus with 16 samples.

Results

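Ctss, Itgam, Pglyrp1 and Lcn2, genes of microglia and of innate immune cells, were followed through the brains of neonatal mice labelled null for connexin 43, heterozygous for it or null for connexin 32. They were selected on their measured values, because earlier results of these arrays had shown them high or low in 1 of the mouse lines, so their own differences are a description. Intervals and threshold calls of these genes come from the fit that chose them and support nothing. The spots that the platform annotation assigns to these 4 gene symbols number 5 of the 28704 on the array. Lcn2 has 2 spots and each of the others has 1. All 4 genes passed the filter on missing values and are among 8654 named genes tested.

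The 16 two-colour cDNA arrays hold 4 samples each of Cx43 null, Cx43 heterozygous and Cx32 null brain, in mice labelled C57BL, and of wild-type brain, in mice labelled C57BL/6j. Only wild type carries the label C57BL/6j. A difference of a line from wild type thus cannot be told apart from a difference of strain. Every group is neonatal by its description, though the titles of the Cx32 null samples leave the age out. The labels do not state how the alleles were made, nor whether 1 brain or several made up a sample. Each brain was hybridised against 1 common pool of adult male and female C57BL tissues that included spleen, lung, liver and brain.

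Values are log2 ratios of brain to that pool with the median of each array set to 0, so a value below 0 is a spot with less signal in brain than in the pool. The submitters state neither the base of the logarithm nor which channel is on top. Folds hold if the base is 2, and directions hold if brain is the numerator, which is likely because a neuron list lay above a list of adult tissue genes on 16 of 16 arrays. Differences between groups are given in log2 units with the standard error (SE) of the fit.

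An array held values for 21010 to 24819 spots. Wild-type replicate 1 stands apart, with a median correlation of 0.576 with the other arrays, against 0.748 to 0.894 for the rest. Gja1, the connexin 43 gene, differed from wild type by -3.40 ± 0.37 in Cx43 null brain, by -2.93 ± 0.37 in Cx43 heterozygous brain and by -1.46 ± 0.37 in Cx32 null brain. Its array values in each line lay below every wild-type value. Gja1 thus lay below wild type in all 3 lines. Its levels ran from -2.92 to -0.60 in Cx43 null and from -1.85 to -1.09 in Cx43 heterozygous brain, so the gene does not tell these lines apart, and the heterozygous level is lower than a loss of 1 of 2 copies gives if level follows copy number. Whether the spot lies in the deleted part is not given in the sources used here, and the groups are named as labelled. In whole brain RNA, fewer cells of a type and less RNA per cell cannot be told apart.

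Microglia are the resident macrophages of the brain, which take up debris and synapses and present antigen when activated. Cathepsin S, the Ctss product, is a lysosomal cysteine protease of macrophages and other antigen-presenting cells and cuts the invariant chain from class II molecules. Itgam encodes CD11b, which pairs with the Itgb2 product to form complement receptor 3 on microglia, macrophages and neutrophils. Pglyrp1 encodes a peptidoglycan recognition protein stored in neutrophil granules, and Lcn2 encodes lipocalin 2, a secreted protein that binds bacterial iron carriers and is induced in reactive astrocytes.

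The promoters of the 4 genes are shown because each was read for the binding words of myeloid and inflammatory transcription factors. The 250 bases before the annotated start are given from RefSeq on build GRCm38.p6, in the direction of the gene. Capitals mark a match, on either strand, to the PU.1 core GAGGAA, the NF-kappaB word GGANTTTCC or the C/EBP word TTNNGNAA, where N is any base.
Ctss, chr3:95526536-95526785, plus strand: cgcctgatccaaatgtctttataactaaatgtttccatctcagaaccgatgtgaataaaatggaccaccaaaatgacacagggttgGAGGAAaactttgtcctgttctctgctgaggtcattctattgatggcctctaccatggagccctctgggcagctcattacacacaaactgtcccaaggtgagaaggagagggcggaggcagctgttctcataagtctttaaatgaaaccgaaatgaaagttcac
Itgam, chr7:128062390-128062639, plus strand: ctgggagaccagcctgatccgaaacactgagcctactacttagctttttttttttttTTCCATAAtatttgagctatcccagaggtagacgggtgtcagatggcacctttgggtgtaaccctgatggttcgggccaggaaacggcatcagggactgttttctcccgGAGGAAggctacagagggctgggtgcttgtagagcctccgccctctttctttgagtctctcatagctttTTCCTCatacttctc
Pglyrp1, chr7:18884440-18884689, plus strand: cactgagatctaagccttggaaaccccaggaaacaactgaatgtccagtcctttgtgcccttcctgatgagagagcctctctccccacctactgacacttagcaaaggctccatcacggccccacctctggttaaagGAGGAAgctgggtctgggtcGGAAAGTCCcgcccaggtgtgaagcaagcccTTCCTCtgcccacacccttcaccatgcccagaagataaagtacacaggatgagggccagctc
Lcn2, chr2:32387740-32387989, minus strand: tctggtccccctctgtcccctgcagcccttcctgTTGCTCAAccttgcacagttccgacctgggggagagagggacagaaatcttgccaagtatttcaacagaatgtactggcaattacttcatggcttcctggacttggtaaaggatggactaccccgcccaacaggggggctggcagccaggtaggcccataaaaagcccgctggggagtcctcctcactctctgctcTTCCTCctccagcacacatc

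All 4 windows held the PU.1 core, 1 copy each in Ctss and Lcn2 and 2 copies each in Itgam and Pglyrp1. PU.1 is a transcription factor of the myeloid lineage, and its core is a short word found in 23.3% of 32851 mouse promoter windows of this length. The NF-kappaB word, present in 1.07% of the windows, was found in Pglyrp1, between 93 and 85 bases before the start. The C/EBP word, present in 36.8% of the windows, was found once each in Itgam and Lcn2. No 2 matches overlapped. These are matches of letters, and binding was not measured.

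Ctss was high in Cx43 heterozygous brain and near the wild-type level in Cx43 null brain. Its values were -2.98, -2.53, -3.62 and -2.15 in Cx43 null brain, -1.43, -1.45, 0.52 and -1.17 in Cx43 heterozygous brain, -2.96, -3.55 and -4.61 in Cx32 null brain and -1.96, -3.08, -3.44 and -2.12 in wild-type brain. Cx32 null replicate 1 had no value for this spot. All 4 heterozygous arrays lay above every wild-type array, and replicate 3 lay far above the other heterozygous arrays.

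The mean Ctss level was -2.82 ± 0.63 in Cx43 null (SD, n = 4), -0.88 ± 0.94 in Cx43 heterozygous (n = 4), -3.71 ± 0.83 in Cx32 null (n = 3) and -2.65 ± 0.72 in wild-type brain (n = 4). In order of level, heterozygous brain came first, with a gap of 0.51 between its lowest array and the highest wild-type array. Wild type, Cx43 null and Cx32 null followed, and in that order each overlapped its neighbour. The difference from wild type was 1.77 ± 0.47 in Cx43 heterozygous brain, which is 3.40-fold higher. It was 1.30 without Cx43 heterozygous replicate 3 and 2.50 after cyclic loess scaling. The difference was -0.17 ± 0.47 in Cx43 null brain and -1.06 ± 0.51 in Cx32 null brain, with overlapping arrays in both.

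Cx43 null and Cx43 heterozygous brain stood apart for Ctss. It was 3.83-fold lower in Cx43 null than in Cx43 heterozygous brain, and the 2 groups did not overlap.

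**Figure D1:**
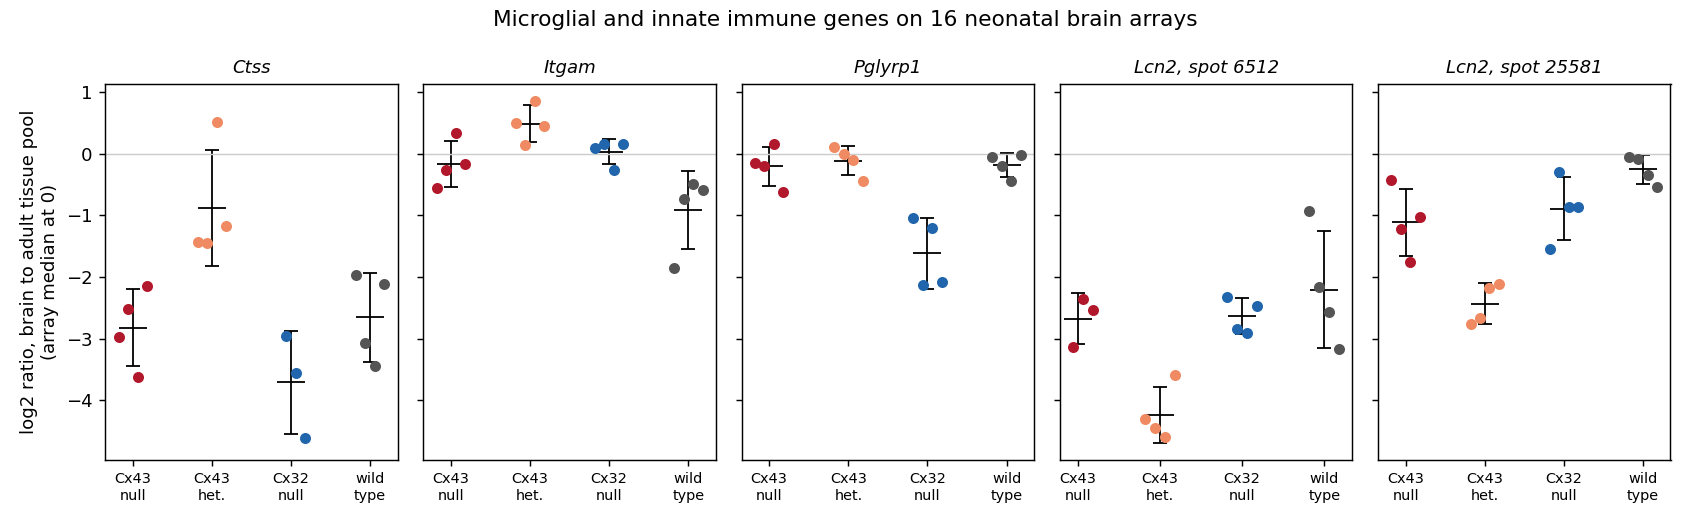
Log2 ratio of brain to the adult tissue pool, array median at 0, for each spot of the 4 genes. Points are arrays, the dash is the group mean and the bar is 1 SD over the 3 or 4 arrays with a value. Ctss is high and both Lcn2 spots are low in Cx43 heterozygous brain, Pglyrp1 is low in Cx32 null brain and Itgam is lowest in wild type. Heights of different spots cannot be compared, since each spot has its own ratio to the pool.

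Itgam was lowest in wild-type brain and higher by group mean in all 3 lines. Its values were -0.56, -0.27, 0.33 and -0.16 in Cx43 null brain, 0.50, 0.13, 0.86 and 0.45 in Cx43 heterozygous brain, 0.10, 0.15, -0.27 and 0.15 in Cx32 null brain and -1.85, -0.74, -0.50 and -0.58 in wild-type brain. Every Cx43 heterozygous and every Cx32 null array lay above every wild-type array. In Cx43 null brain 1 array, replicate 1, lay within the wild-type range.

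The mean Itgam level was -0.17 ± 0.37 in Cx43 null, 0.49 ± 0.30 in Cx43 heterozygous, 0.03 ± 0.20 in Cx32 null and -0.92 ± 0.63 in wild-type brain (SD, n = 4 each). The order was Cx43 heterozygous, Cx32 null, Cx43 null and wild type, and each group overlapped the next. Itgam was 2.65-fold higher than wild type in Cx43 heterozygous brain (1.41 ± 0.27) and 1.93-fold higher in Cx32 null brain (0.95 ± 0.27). In Cx43 null brain the difference was 0.75 ± 0.27.

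Wild-type replicate 1 held the lowest Itgam value, and the spots around Itgam on that array correlated at only 0.371 with the other arrays. Without it the differences were 0.44 in Cx43 null, 1.09 in Cx43 heterozygous and 0.64 in Cx32 null brain.

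Itgb2, the partner chain of the Itgam product, did not move with it. Its difference from wild type was 0.04 ± 0.24 in Cx43 null, 0.15 ± 0.24 in Cx43 heterozygous and 0.08 ± 0.26 in Cx32 null brain, and none of these passed limma's test.

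Pglyrp1 was low in Cx32 null brain. Its values were -0.16, -0.19, 0.16 and -0.62 in Cx43 null brain, 0.11, -0.01, -0.11 and -0.45 in Cx43 heterozygous brain, -1.05, -2.13, -1.20 and -2.09 in Cx32 null brain and -0.06, -0.20, -0.45 and -0.02 in wild-type brain. The other 3 groups shared 1 range, and the highest Cx32 null array lay 0.43 below the lowest of them. Within Cx32 null brain the values formed a higher and a lower pair.

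The mean Pglyrp1 level was -0.20 ± 0.32 in Cx43 null, -0.11 ± 0.24 in Cx43 heterozygous, -1.62 ± 0.57 in Cx32 null and -0.18 ± 0.20 in wild-type brain (SD, n = 4 each). Cx32 null brain was 2.71-fold lower than wild type, a difference of -1.44 ± 0.25 that ran from -1.63 to -1.26 when 1 array at a time was left out. The differences were -0.02 ± 0.25 in Cx43 null and 0.07 ± 0.25 in Cx43 heterozygous brain. Their 95% intervals ran from -0.53 to 0.50 and from -0.45 to 0.59. Pglyrp1 was also 2.67-fold higher in Cx43 null than in Cx32 null brain and 2.84-fold higher in Cx43 heterozygous than in Cx32 null brain, with no overlap in either pair.

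Lcn2 was low in Cx43 heterozygous brain at both of its spots. At spot 6512 the values were -3.13, -2.36 and -2.53 in Cx43 null brain, -4.31, -4.46, -4.60 and -3.59 in Cx43 heterozygous brain, -2.32, -2.84, -2.91 and -2.46 in Cx32 null brain and -0.93, -2.17, -2.57 and -3.17 in wild-type brain. Cx43 null replicate 1 had no value there. The 4 heterozygous arrays lay below every other array at this spot.

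At spot 25581 the values were -0.44, -1.23, -1.76 and -1.03 in Cx43 null brain, -2.77, -2.67, -2.18 and -2.12 in Cx43 heterozygous brain, -1.54, -0.30, -0.87 and -0.86 in Cx32 null brain and -0.05, -0.09, -0.35 and -0.54 in wild-type brain. The heterozygous arrays again lay below all others, and wild type was the highest group by its mean. Across 15 arrays the 2 spots correlated at r = 0.781, a description in which the spots share the arrays and their scaling.

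Lcn2 in Cx43 heterozygous brain was 4.09-fold lower than wild type at spot 6512 and 4.52-fold lower at spot 25581. Averaged over the spots, the difference was -2.11 ± 0.33, or 4.30-fold lower, and it was -1.59 after cyclic loess scaling. The difference in Cx43 null brain was -0.47 at spot 6512 and -0.86 at spot 25581, with overlapping arrays at both. It was -0.43 and -0.64 at these spots in Cx32 null brain, again with overlap. The plain average over spots gave -0.38 ± 0.33 in Cx43 null brain, outside the values of both spots, because Cx43 null replicate 1 enters it through the higher-reading spot 25581 alone. It was -0.60 when the spots were aligned on their own means first, an alternative added after seeing the data.

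The mean Lcn2 level at spot 6512 was -2.67 ± 0.41 in Cx43 null (SD, n = 3), -4.24 ± 0.45 in Cx43 heterozygous, -2.63 ± 0.29 in Cx32 null and -2.21 ± 0.94 in wild-type brain (n = 4 each). At spot 25581 it was -1.11 ± 0.55 in Cx43 null, -2.43 ± 0.33 in Cx43 heterozygous, -0.89 ± 0.51 in Cx32 null and -0.26 ± 0.23 in wild-type brain (n = 4 each). At both spots the order was wild type, Cx32 null, Cx43 null and Cx43 heterozygous, and the first 3 groups overlapped their neighbours. Cx43 null brain was 2.96-fold higher than Cx43 heterozygous brain at spot 6512 and 2.50-fold higher at spot 25581, with gaps of 0.46 and 0.36 between their arrays.

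**Figure D2:**
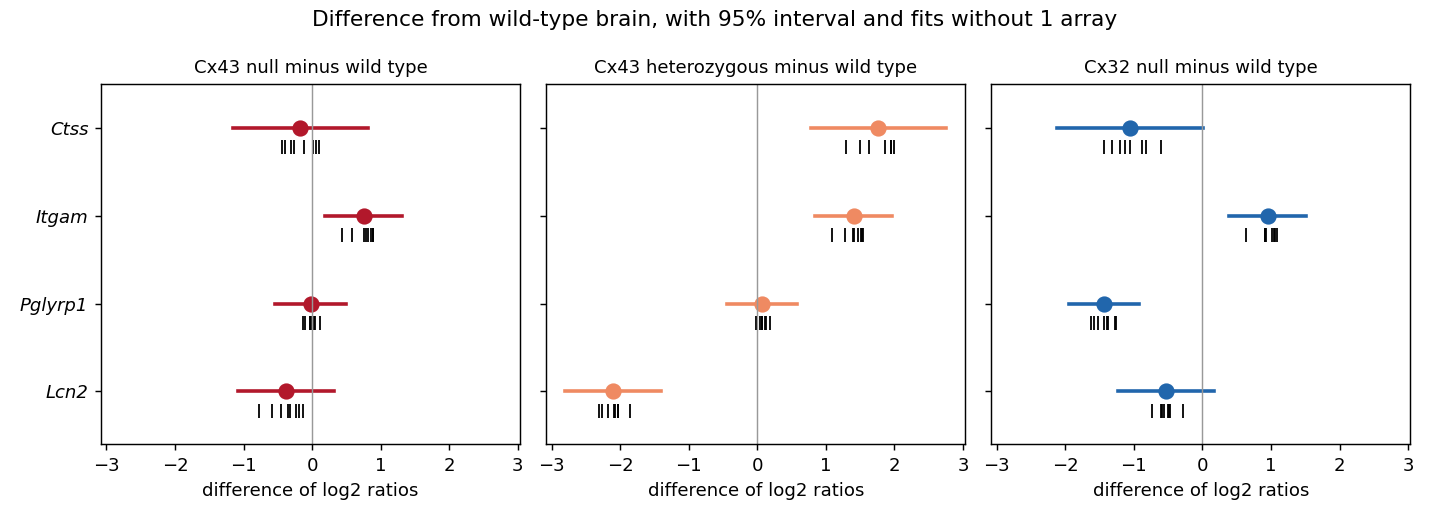
Difference of log2 ratios from wild-type brain for each gene and line. Circles are the differences with 95% intervals from the fit, and the ticks under each are the 8 fits that leave out 1 array of the line or of wild type. Ctss and Itgam lie above 0 and Lcn2 below 0 in Cx43 heterozygous brain in every such fit, and Pglyrp1 lies below 0 in Cx32 null brain. Lcn2 is the plain average of its spots, which for Cx43 null brain lies outside both.

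The direction of these differences varied by gene and by line. In Cx43 null brain 0 of the 4 genes passed limma's adjusted threshold and 0 lay wholly outside the wild-type range. Over all 14292 transcripts, 4.37% passed as higher and 6.43% as lower there, and 6.64% lay wholly above and 6.26% wholly below wild type. In Cx43 heterozygous brain 2 genes passed as higher and 1 as lower, and the same 3 lay wholly outside the wild-type range. The shares over all transcripts were 13.5% passing as higher, 17.5% passing as lower, 13.8% wholly above and 17.4% wholly below. In Cx32 null brain 1 gene passed as higher and 1 as lower, and both lay wholly outside. The shares there were 13.1%, 14.3%, 13.2% and 14.6% in the same order. These calls chose the genes and nothing is read from their number. The 3 comparisons share the wild-type arrays.

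The spread between arrays of a group was larger than usual for Ctss. Its SD was 0.63 in Cx43 null, 0.94 in Cx43 heterozygous, 0.83 in Cx32 null and 0.72 in wild-type brain, where the median over all transcripts was 0.27, 0.20, 0.21 and 0.39. The 4 genes did not rise and fall together. Itgam ran opposite to Lcn2, with r = -0.75 over 15 arrays at spot 6512 and r = -0.76 over 16 arrays at spot 25581. After group means were removed these were -0.54 and -0.33. Ctss and Itgam correlated at 0.30 over 15 arrays, and at -0.16 within groups. These correlations are descriptions of arrays that share their groups and scaling.

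Among 6864 named genes with values on the same 15 arrays, those whose pattern was most like Ctss were Hfe (r = 0.843), Ubl4b (r = 0.839) and Cox6c (r = 0.836). Hfe encodes a regulator of iron uptake, Ubl4b a ubiquitin-like protein and Cox6c a subunit of cytochrome c oxidase. Hfe averaged -1.76 in Cx43 null, -0.71 in Cx43 heterozygous, -2.08 in Cx32 null and -1.64 in wild-type brain. The genes named here and below for likeness were picked by it on these same arrays. That their group levels follow the gene they resemble is therefore fixed by the choice and is no separate result.

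Over 16 arrays and 6756 candidates, Itgam was most like Tbc1d24 (r = 0.938), Gm11517 (r = 0.933) and Zdhhc14 (r = 0.933), the last a palmitoyltransferase gene. Pglyrp1 was most like Clic5, which encodes a chloride intracellular channel protein (r = 0.857), the aldehyde dehydrogenase gene Aldh1a7 (r = 0.85) and the villin-like gene Vill (r = 0.849). Vill averaged -0.92 in Cx43 null, -0.80 in Cx43 heterozygous, -1.68 in Cx32 null and -0.83 in wild-type brain.

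Lcn2 was most like Tubg1 (r = 0.952), Gatm (r = 0.952) and Oxr1 (r = 0.928) by the plain average of its spots. With the spots aligned, they were Gatm (r = 0.942), Cct6a (r = 0.932) and Vdac3 (r = 0.927), so only Gatm was named both ways. Gatm encodes an enzyme of creatine synthesis and averaged 0.81 in Cx43 null, -0.38 in Cx43 heterozygous, 0.65 in Cx32 null and 1.21 in wild-type brain. The Tubg1 spot lies in a stretch of 200 spots where at least 1 array did not follow the others, which holds for 2200 spots in all and for no spot of the 4 genes.

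The wider microglia and macrophage list moved lower more often than higher. Of 59 genes listed, 19 could be tested, while defining markers such as Aif1, Cx3cr1, Csf1r and P2ry12 were not analysed here. The list's median level lay between -1.64 and -0.99 on the Cx43 null arrays, between -1.70 and -1.27 on the Cx43 heterozygous arrays, between -1.61 and -1.11 on the Cx32 null arrays and between -0.90 and -0.83 on the wild-type arrays. All 12 arrays of the 3 lines thus lay below all 4 wild-type arrays, which also differ from them in strain label. The median difference of the 19 genes was -0.40 in Cx43 null, -0.56 in Cx43 heterozygous and -0.46 in Cx32 null brain, beside 0.01, -0.02 and -0.03 over all transcripts. It stayed below 0 under each scaling and was closest to 0, at -0.15, in Cx43 heterozygous brain after cyclic loess scaling.

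In Cx43 heterozygous brain 2 of the 19 microglial genes rose and 9 fell, and in Cx32 null brain 1 rose and 7 fell. In Cx43 null brain 1 rose and 4 fell. The falling genes were 21.1% of the list in Cx43 null, 47.4% in Cx43 heterozygous and 36.8% in Cx32 null brain, beside 6.43%, 17.5% and 14.3% of all transcripts. Without wild-type replicate 1 the counts were 1 and 8 in Cx43 heterozygous, 1 and 7 in Cx32 null and 1 and 2 in Cx43 null brain. Without Cx43 null replicate 3 none of the 16 genes of the 9 related lists that had passed in Cx43 null brain still passed.

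The subunits of complement C1q, which microglia make and which tags synapses for removal, were among the microglial genes that fell. C1qb averaged -1.32 ± 0.47 in Cx43 null, -1.57 ± 0.16 in Cx43 heterozygous, -1.38 ± 0.36 in Cx32 null and -0.35 ± 0.23 in wild-type brain (SD, n = 4 each). Its differences from wild type were -0.97 ± 0.23, -1.22 ± 0.23 and -1.03 ± 0.23 in the same order of lines, and every array of each line lay below wild type. The Cx43 null call was lost without Cx43 null replicate 3 or 4 or wild-type replicate 2 (-0.77 at the weakest). C1qa differed by -1.34 ± 0.38, -1.90 ± 0.38 and -1.76 ± 0.38, but its spot lies in one of the stretches where an array did not follow the others.

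Selplg, which encodes a selectin ligand of leukocytes, fell by 1.38 ± 0.21 in Cx43 heterozygous and by 1.38 ± 0.23 in Cx32 null brain. Its difference of -0.89 ± 0.21 in Cx43 null brain passed too, but not without Cx43 null replicate 3, among other single arrays. Fcgr3, an immunoglobulin receptor gene, differed by -0.62 ± 0.31 in Cx43 null brain, without passing, and fell by 1.09 ± 0.31 in Cx43 heterozygous and by 1.36 ± 0.31 in Cx32 null brain. Irf8, which encodes a transcription factor of myeloid cells, fell by 0.83 ± 0.20 in Cx43 heterozygous and by 1.03 ± 0.20 in Cx32 null brain. Those 3 genes kept their calls in these 2 lines when any 1 array of the line or of wild type was left out.

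Cd53, a tetraspanin gene of leukocytes, went the other way. It rose by 0.85 ± 0.21 in Cx43 null, by 0.80 ± 0.21 in Cx43 heterozygous and by 0.75 ± 0.21 in Cx32 null brain. Its call in Cx32 null brain was lost without wild-type replicate 3 (adjusted p = 0.053, limma), and in Cx43 null brain it was lost without Cx43 null replicate 2 or 3 or wild-type replicate 3. Tyrobp, an adaptor of microglial receptors, rose by 0.70 ± 0.24 in Cx43 heterozygous brain, a call that was lost when any of 7 single arrays was left out (adjusted p up to 0.0862, limma). In Cx43 heterozygous brain Ctss and Itgam, both chosen as high there, had the direction of Cd53 and Tyrobp, opposite to C1qb, Selplg and Irf8. In the other lines Ctss did not share the rise of Cd53, with differences of -0.17 in Cx43 null and -1.06 in Cx32 null brain.

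**Figure D3:**
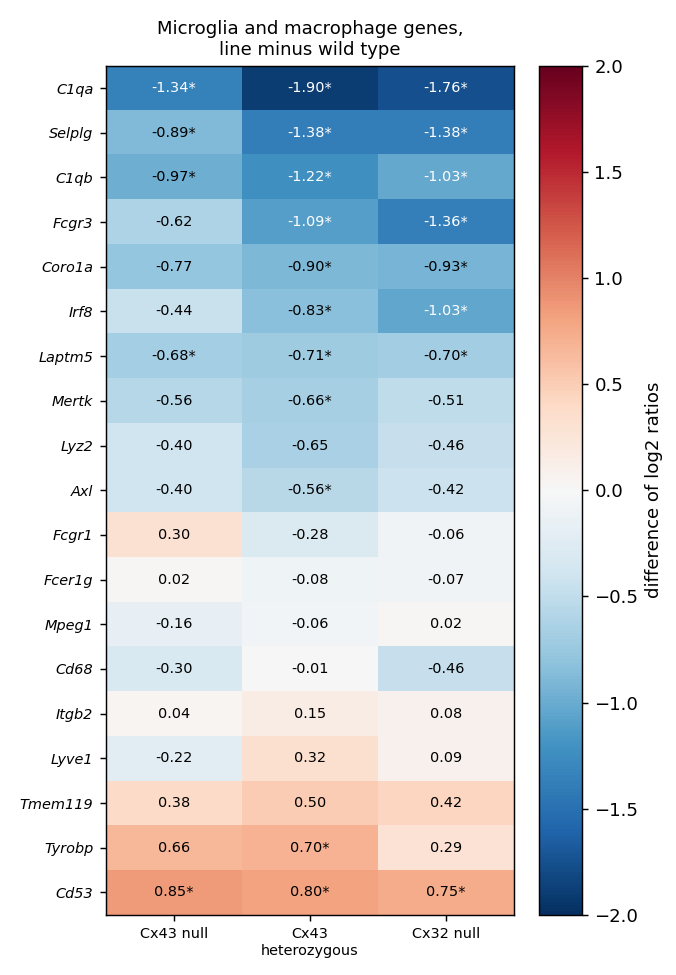
Difference of log2 ratios from wild-type brain for the 19 tested genes of the microglia and macrophage list, in 3 columns for the lines. Red cells are higher and blue cells lower than wild type, and an asterisk marks an adjusted p under 0.05 (limma). C1qa, Selplg, C1qb and Laptm5, a lysosomal membrane protein gene, are blue with an asterisk in all 3 columns, and Cd53 is red with an asterisk in all 3.

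Among cathepsins and their inhibitors, the group of Ctss, 0 of 12 other tested genes rose in any line. In Cx43 heterozygous brain 3 fell, in Cx32 null brain 4 fell and in Cx43 null brain 1 fell. The falling genes were 25%, 33.3% and 8.33% of the list in that order, beside 17.5%, 14.3% and 6.43% of all transcripts. Over all transcripts 13.5%, 13.1% and 4.37% rose in the same order. With 12 genes nothing is read from these counts. Ctsd, which encodes the aspartic protease of the lysosome, fell by 1.20 ± 0.21 in Cx43 heterozygous and by 1.23 ± 0.21 in Cx32 null brain. Its difference of -1.02 ± 0.21 in Cx43 null brain passed too, but not without Cx43 null replicate 3. Ctsl, a cysteine protease gene, fell by 1.26 ± 0.33 and Ctsa, the gene of a serine carboxypeptidase, by 1.19 ± 0.20 in Cx43 heterozygous brain. In Cx32 null brain Ctsl fell by 1.29 ± 0.33, Ctsa by 1.11 ± 0.20 and the legumain gene Lgmn by 0.74 ± 0.18. In Cx43 heterozygous brain, where Ctss was high, 0 of the other genes rose with centred arrays, and 2 rose with the values as deposited.

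Only 4 genes of class II antigen processing, the pathway in which cathepsin S acts, could be tested. H2-Aa, a class II chain gene, fell by 1.12 ± 0.25 in Cx43 null and by 1.44 ± 0.25 in Cx43 heterozygous brain, and in Cx32 null brain its difference of -0.66 ± 0.25 did not pass (adjusted p = 0.0543, limma). The Cx43 null call was lost without Cx43 null replicate 3 (adjusted p = 0.0601, limma). H2-Ab1, H2-Eb1 and H2-Oa did not pass in any line. H2-Ab1 differed by 0.74 ± 0.57 in Cx43 null, by 0.80 ± 0.57 in Cx43 heterozygous and by 0.57 ± 0.57 in Cx32 null brain. The median difference of the 4 genes was -0.33, -0.02 and 0.28 in the same order of lines, so the list did not follow H2-Aa as a whole.

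Integrins and their leukocyte ligands, the group of Itgam, held calls in both directions. Of 11 tested genes 2 rose and 3 fell in Cx43 heterozygous brain, 3 rose and 3 fell in Cx32 null brain, and 0 rose and 1 fell in Cx43 null brain. Over all transcripts 13.5% rose and 17.5% fell in Cx43 heterozygous and 13.1% and 14.3% in Cx32 null brain, so a gene or 2 separates these counts from that background, and nothing is read from them. Itga4, an integrin alpha chain gene, rose by 0.61 ± 0.19 in Cx43 heterozygous and by 0.66 ± 0.19 in Cx32 null brain. Tln1, which encodes the integrin activator talin, rose by 0.63 ± 0.23 and by 0.74 ± 0.23 in these lines. Itgax, the gene of CD11c, rose by 1.18 ± 0.35 in Cx32 null brain. Without wild-type replicate 1 the number that rose was 0 in Cx43 heterozygous and 1 in Cx32 null brain. In Cx43 heterozygous brain the calls of Itga4 and Tln1 were also lost without Cx43 heterozygous replicate 3 or 4 or wild-type replicate 2, and that of Tln1 without Cx43 heterozygous replicate 1, with differences as low as 0.46 for Itga4 and 0.42 for Tln1. The Cx32 null call of Itga4 was also lost without Cx32 null replicate 1 and that of Tln1 without Cx32 null replicate 4, with differences as low as 0.51 and 0.53. The call of Itgax was lost without Cx32 null replicate 1 or 4, with a difference as low as 0.75. Itgb1, the beta chain of many integrins, fell by 1.02 ± 0.25 in Cx43 heterozygous and by 0.86 ± 0.25 in Cx32 null brain, and the junctional adhesion gene F11r fell by 1.53 ± 0.20 and by 0.97 ± 0.20.

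Neutrophil genes, the group of Pglyrp1 and Lcn2, held calls in both directions in Cx43 heterozygous and Cx32 null brain. Of 11 tested genes 2 rose and 2 fell in Cx43 heterozygous brain, 2 rose and 3 fell in Cx32 null brain, and 1 rose and 0 fell in Cx43 null brain. In Cx43 heterozygous brain that is 18.2% each way, beside 13.5% rising and 17.5% falling over all transcripts. In Cx32 null brain it is 18.2% rising and 27.3% falling, beside 13.1% and 14.3%. In Cx43 null brain it is 9.09% rising and 0% falling, beside 4.37% and 6.43%. With 11 genes nothing is read from the counts. Gfi1, which encodes a repressor needed for neutrophil development, rose by 1.19 ± 0.23 in Cx43 heterozygous and by 0.84 ± 0.23 in Cx32 null brain. The lactoferrin gene Ltf, a granule protein as the Pglyrp1 product is, rose by 0.66 ± 0.21 in Cx32 null brain, where Pglyrp1 was low. In the same list Mmp9 fell there by 0.84 ± 0.28, and Mpo differed by -0.78 ± 0.33 without passing. The Mmp9 call was lost without Cx32 null replicate 1, 2 or 4 or wild-type replicate 1 or 2. Cd177 rose by 0.74 ± 0.22 in Cx43 null and by 0.69 ± 0.22 in Cx43 heterozygous brain. Both Cd177 calls were lost without wild-type replicate 1, among other single arrays. In Cx32 null brain the call of Gfi1 was lost without Cx32 null replicate 2 (adjusted p = 0.0556, limma), and that of Ltf without Cx32 null replicate 1 or 2 or wild-type replicate 1, 2 or 3 (0.56 at the lowest). Cybb, the catalytic chain of the phagocyte oxidase, fell by 1.35 ± 0.28 in Cx43 heterozygous and by 1.13 ± 0.28 in Cx32 null brain. The defining neutrophil gene S100a9 differed by 0.63 in Cx43 null, by -0.58 in Cx43 heterozygous and by 0.03 in Cx32 null brain and did not pass in any. The list's median level ran from -1.03 to -0.46 on the arrays of the 3 lines and from -1.09 to -0.69 on the wild-type arrays, so these overlapped.

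Of 8 tested genes of peptidoglycan and toll-like receptor recognition, Tirap, an adaptor gene of these receptors, rose by 0.71 ± 0.19 in each of the 3 lines, a call that in Cx43 null brain was lost when any of 5 single arrays was left out. Tlr1 fell by 0.69 ± 0.23 in Cx43 heterozygous brain, and the call was lost when any of 4 single arrays was left out.

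Lipocalins and iron handling genes, the group in which Lcn2 acts, fell more often than they rose in Cx43 heterozygous brain, where 2 of 16 rose and 6 fell. In Cx43 null brain 0 rose and 2 fell, and in Cx32 null brain 1 rose and 1 fell. The falling genes were 12.5% of the list in Cx43 null, 37.5% in Cx43 heterozygous and 6.25% in Cx32 null brain. Over all transcripts 6.43%, 17.5% and 14.3% fell in the same order of lines. In Cx43 heterozygous brain 12.5% of the list rose, beside 13.5% of all transcripts. Slc22a17, the gene of a cell surface receptor for lipocalin 2, fell by 0.60 ± 0.22 in Cx43 heterozygous brain, where its ligand was low. It differed by -0.02 ± 0.22 in Cx43 null and by -0.31 ± 0.22 in Cx32 null brain without passing. Its call in Cx43 heterozygous brain was lost when any of 7 single arrays was left out (adjusted p up to 0.115, limma).

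Of the other iron genes, Hfe rose by 0.93 ± 0.23 and Slc11a2, an iron transporter gene, by 0.53 ± 0.17 in Cx43 heterozygous brain. Hfe is the gene picked above for its likeness to Ctss. Slc40a1, the gene of the iron exporter ferroportin, rose by 0.89 ± 0.21 in Cx32 null brain. Hpx, which encodes the haem carrier haemopexin, fell by 3.35 ± 0.75, Hamp, the gene of the iron hormone hepcidin, by 1.86 ± 0.49 and Cp, the gene of the copper oxidase ceruloplasmin, by 1.52 ± 0.32 in Cx43 heterozygous brain. In Cx32 null brain Cp fell by 1.34 ± 0.32. Hpx (-2.59 ± 0.75) and Cp (-1.26 ± 0.32) passed as lower in Cx43 null brain too, calls lost without Cx43 null replicate 3. Hpx and Hamp read far below the pool, at mean levels of -6.88 and -5.41 in Cx43 heterozygous and -3.53 and -3.55 in wild-type brain. Whether such values lie near background is unknown. The call of Hamp was lost without Cx43 heterozygous replicate 3 (adjusted p = 0.0558, limma), and that of Slc11a2 without Cx43 heterozygous replicate 1 or 3 or wild-type replicate 1 (0.40 at the lowest). After cyclic loess scaling the heterozygous counts were 3 rising and 3 falling.

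**Figure D4:**
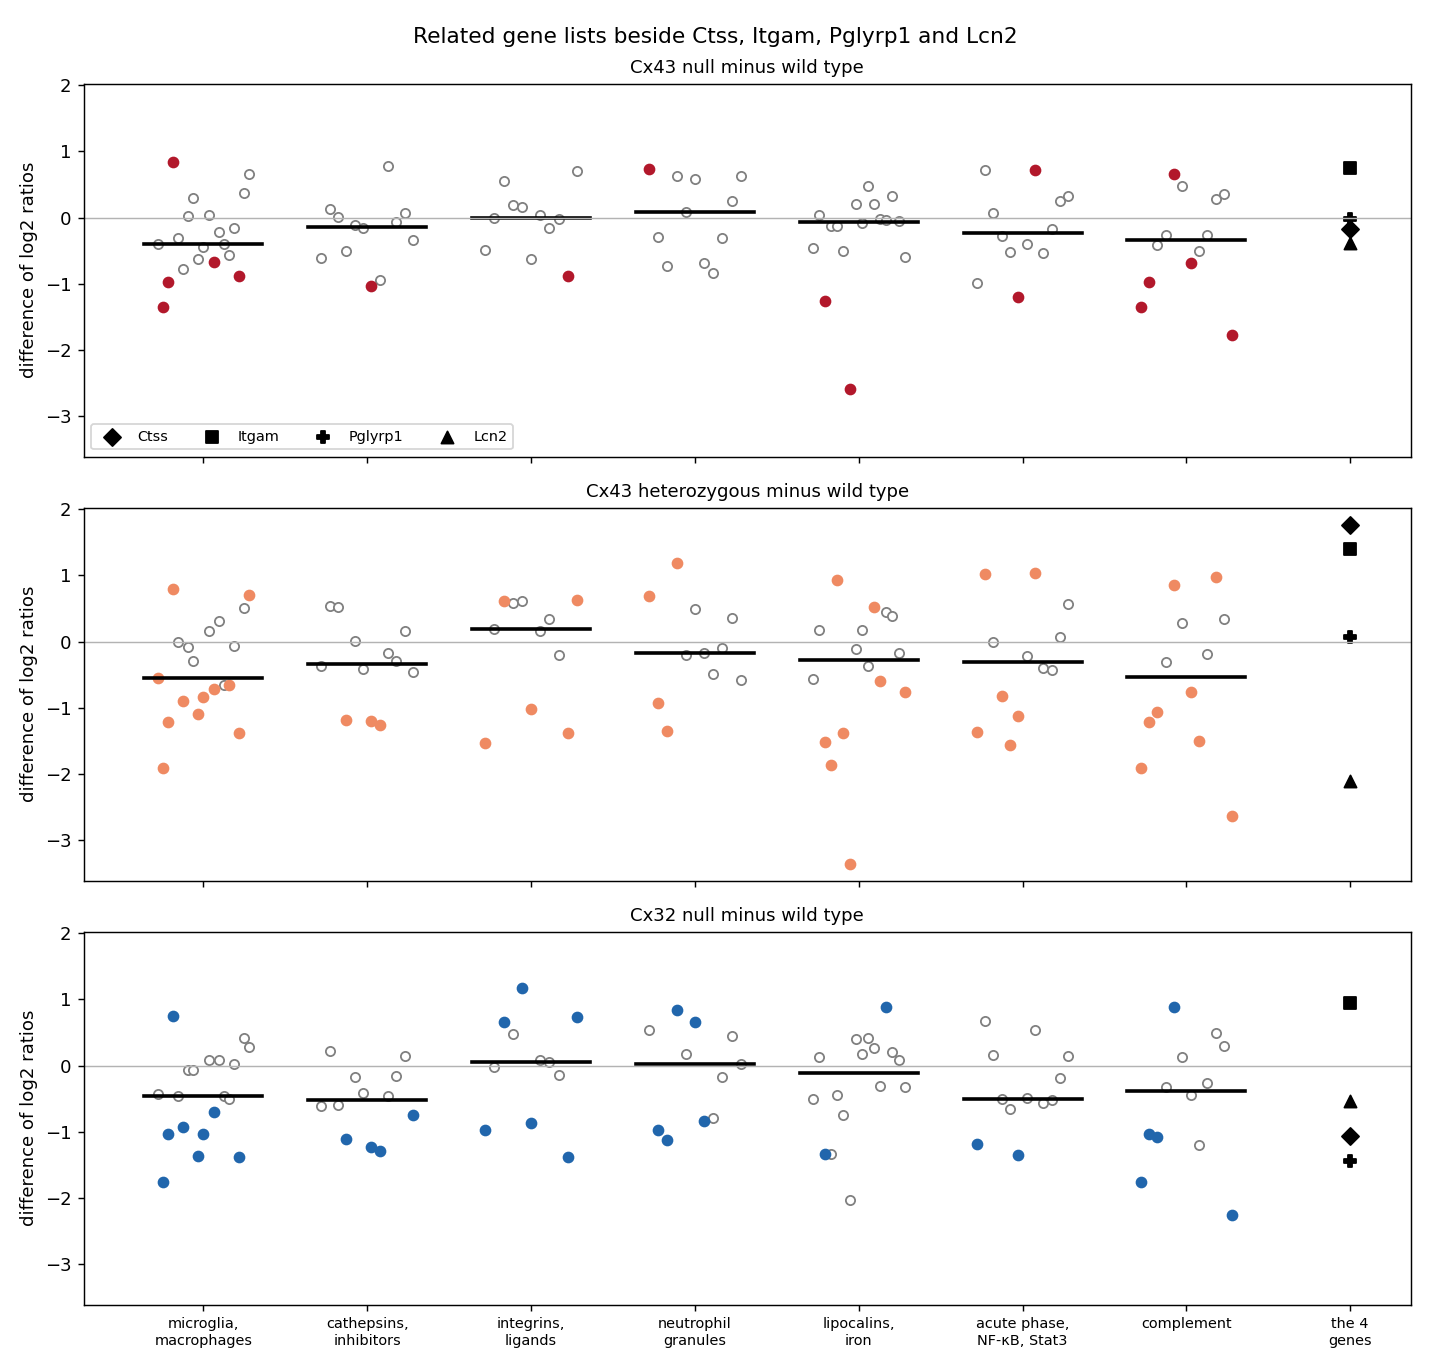
Difference of log2 ratios from wild-type brain for the tested genes of 7 related lists, with the 4 genes in black at the right, in 1 panel per line. Filled points passed limma's test at an adjusted p under 0.05, open points did not, and the bar is the list's median. Points fall on both sides of 0 in every list, and no cathepsin gene passed as higher in any line.

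Genes listed for the acute phase, NF-kappaB and Stat3 held calls in both directions. NF-kappaB and Stat3 drive Lcn2 in inflammation. The 12 tested genes were mostly components of these pathways, and no gene of an acute phase protein was among them. Of these 12 genes 2 rose and 4 fell in Cx43 heterozygous brain, 0 rose and 2 fell in Cx32 null brain, and 1 rose and 1 fell in Cx43 null brain. Over all transcripts 13.5% rose and 17.5% fell in Cx43 heterozygous, 13.1% and 14.3% in Cx32 null and 4.37% and 6.43% in Cx43 null brain. Nothing is read from these counts. Rela, the p65 subunit of NF-kappaB, rose by 1.03 ± 0.20 and Ikbkb, the kinase that releases it, by 1.02 ± 0.28 in Cx43 heterozygous brain. Nfkb2, the p100 subunit, fell by 1.56 ± 0.27 and Cebpa, a myeloid and liver transcription factor gene, by 1.36 ± 0.33 there. In Cx32 null brain Cebpa fell by 1.18 ± 0.33. Nfkbia, the inhibitor that NF-kappaB induces, fell by 1.13 ± 0.32 in Cx43 heterozygous and fell by 1.35 ± 0.32 in Cx32 null brain, but its spot lies in a stretch where an array did not follow the others. Rela (0.72 ± 0.20) passed as higher and Nfkbia (-1.19 ± 0.32) as lower in Cx43 null brain too, calls lost without Cx43 null replicate 3.

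Genes of complement, the system to which complement receptor 3 belongs, fell more often than they rose. Of 12 tested genes 2 rose and 6 fell in Cx43 heterozygous brain, 1 rose and 4 fell in Cx32 null brain, and 1 rose and 4 fell in Cx43 null brain. The falling genes were 33.3% of the list in Cx43 null, 50% in Cx43 heterozygous and 33.3% in Cx32 null brain. Over all transcripts 6.43%, 17.5% and 14.3% fell in the same order of lines. C1qa and C1qb, which fell in each line, are also in the microglia list and were counted there. Serping1, the inhibitor of C1, fell by 2.63 ± 0.36 in Cx43 heterozygous and by 2.25 ± 0.36 in Cx32 null brain. C6, a late component gene, rose by 0.86 ± 0.19 and by 0.89 ± 0.19 in these lines, and Masp1, a protease gene of the lectin pathway, rose by 0.98 ± 0.24 in Cx43 heterozygous brain. Serping1 (-1.78 ± 0.36) and C6 (0.66 ± 0.19) passed in the same directions in Cx43 null brain, calls lost without Cx43 null replicate 3. The list's median difference depended on the scaling in all 3 lines. It was -0.34 in Cx43 null, -0.53 in Cx43 heterozygous and -0.38 in Cx32 null brain with centred arrays, but 0.13, -0.02 and 0.05 after cyclic loess scaling. The counts after that scaling were 2 rising and 3 falling in Cx43 null, 4 and 5 in Cx43 heterozygous and 1 and 4 in Cx32 null brain.

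Of 7 lists of other cells and tissues, those of red blood cells and of astrocytes lay apart from wild type in at least 1 line on every array. For red blood cells and their precursors, 6 of 10 tested genes fell and 1 rose in Cx43 heterozygous brain, and the list's median level ran from -1.65 to -1.21 there, against -1.10 to -0.69 on the wild-type arrays. For astrocytes and radial glia the median level ran from -0.07 to 0.71 on the arrays of the 3 lines, against 1.10 to 2.31 on the wild-type arrays. That list includes Gja1 itself, so it is not separate from the gene the Cx43 lines are named for. Of its 7 tested genes 4, with Gja1, fell in Cx43 heterozygous brain and 1, Fabp7, rose by 0.81 ± 0.25. Over all transcripts 17.5% fell and 13.5% rose in Cx43 heterozygous brain. The neuron list ran from 1.99 to 2.56 on the arrays of the 3 lines, against 1.89 to 2.48 on the wild-type arrays, and the endothelium list from -0.65 to -0.05, against -0.59 to -0.16, so both overlapped. The lists of meninges and choroid plexus and of adult tissues overlapped wild type in each line too. Still, the adult tissue list lay below every wild-type array on 8 of the 12 arrays of the lines. Its median difference was -0.25 in Cx43 null, -0.30 in Cx43 heterozygous and -0.48 in Cx32 null brain. For B and T lymphocytes, whose list also overlapped, 3 genes could be tested and 0 passed in any line, by limma's adjusted p, while unadjusted p-values of this fit across all transcripts were 0.0306 for Cd79b in Cx43 heterozygous and 0.0223 for Cd79a in Cx32 null brain. The part of blood, glia or other cells in the values of Ctss, Itgam, Pglyrp1 and Lcn2 was not tested.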

How the data were processed

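The authors deposited 1 log ratio per spot and array, already computed from the 2 channels, and these were read as log2 ratios of brain over the reference. Per the labels, neither the log base, nor the direction of the ratio, nor the normalization is given. Per the labels, brain carried Cy3 and the pool Cy5. For wild-type replicates 3 and 4 only the dye of the pool is stated, and the channel label of replicate 3 has another number than its title, which was followed. No intensities or spot flags were used, so signal over background is unknown. The labels do not say that samples are separate animals, so the p-values rest on a spread between samples that may be technical, and the 4 arrays per group limit the precision.

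Arrays were centred on their medians (-0.13 to 0.28 before centring). Spots with at least 3 of 4 values in each group were kept, 19951 in all, and spots of 1 gene averaged to 14292 transcripts. A linear model with 4 group means was then run over the 16 arrays in limma 3.58.1 (lmFit, eBayes, 2-sided; R 4.3.3), with Benjamini-Hochberg adjustment over all transcripts and a threshold of 0.05. Spots were named through the platform annotation. The fit was tested on simulated data.

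The 4 genes, the 9 related lists, the 7 cell type lists and the tests were chosen with earlier results of these data known. Beside the 4 genes, the text names Gja1, Itgb2 and Slc22a17, up to 3 passing genes per list, direction and line with the largest difference, and the 3 genes most correlated with each of the 4. Others, such as S100a9, Tyrobp, Lgmn, Laptm5 and the lymphocyte and non-passing microglial genes, were named for their role or after their values were seen. Alternatives covered scaling, missing values, spots of a gene, the groups in the fit, array weights, a trended robust spread, a replicate block and leaving out each array. Added after seeing the data were aligning the 2 Lcn2 spots and leaving out stretches where an array did not follow the others.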

Additional observations from a re-analysis of the deposited data

Results flagged for a closer look

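In 18 groups of 4 arrays, 1 per spot and genotype where all 4 values existed, the highest or lowest array was set against the others by Dixon's ratio at its 95% critical value. In 2 of these groups 1 array stood apart, and chance gives about 1 in 20.

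Cx43 heterozygous replicate 3 had a Ctss value of 0.518, against -1.43, -1.45 and -1.17 on the other heterozygous arrays. Without it Ctss was still higher in Cx43 heterozygous than in wild-type brain, by 1.30 log2 units.

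Cx32 null replicate 3 had an Itgam value of -0.266, against 0.10, 0.15 and 0.15 on the other Cx32 null arrays. It still lay above the highest wild-type value of -0.50.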

How the results depend on the processing

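Over 237 alternative values of the 4 genes, 237 lay within 1 SD of the reported value and no called difference changed sign. The calls that chose the genes, of Ctss, Itgam and Lcn2 in Cx43 heterozygous brain and of Pglyrp1 in Cx32 null brain, were present in every alternative run, which is no independent support, while Itgam in Cx32 null brain missed it when only these 2 groups were fitted. Itgam in Cx43 null brain passed in 2 of 20 alternatives and Lcn2 in Cx43 null brain in 1 of 20, with all 4 values required in each group (-0.86). That filter left no value for Ctss. The number of transcripts past the threshold in Cx43 null brain, 1543, became 0 when only the 2 groups were fitted with limma (3061 at an unadjusted p under 0.05), 4056 with array weights and 114 to 2989 when 1 array was left out, the lowest without Cx43 null replicate 3. In Cx32 null brain 3908 became 2256 when only the 2 groups were fitted. Without centring, the share of calls that were higher became 62.7% in Cx43 heterozygous brain, against 43.6%, and 57.2% in Cx32 null brain, against 47.9%. With the replicate block the counts were 1560 in Cx43 null, 4376 in Cx43 heterozygous and 3844 in Cx32 null brain, and it changed no call of the 4 genes. The numbers do not pair the samples: deviations of same-numbered arrays correlated at -0.096 to 0.162, and at most 2 of 4 correlated best with their own number. Over 540 alternative list medians, 496 kept their sign, and of 1080 list counts 865 stayed within 1.5 times. Without intensities, spots near background cannot be told from others.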

Other observations

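Several genes that mark microglia or macrophages did not pass limma's test in any line. Cd68, a lysosomal protein gene of phagocytes, differed from wild type by -0.30 ± 0.27 in Cx43 null, by -0.01 ± 0.27 in Cx43 heterozygous and by -0.46 ± 0.27 in Cx32 null brain. Tmem119, a gene of resident microglia, differed by 0.38 in Cx43 null, by 0.50 in Cx43 heterozygous and by 0.42 in Cx32 null brain. Mpeg1, the gene of a pore-forming protein of macrophages, differed by -0.16 in Cx43 null, by -0.06 in Cx43 heterozygous and by 0.02 in Cx32 null brain. Every Cx43 heterozygous array of Tmem119 lay above every wild-type array. The differences of these genes had both signs in each line, but none passed and no direction is read from them.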
